A study of Mus musculus with 16 samples.

Results

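Fatty acid and cholesterol synthesis was examined through 36 genes, listed by symbol and matched in the gene name column of the count table, out of 55487 genes in that table. They cover 7 regulators, 5 enzymes that supply acetyl-CoA, malonyl-CoA and NADPH, 7 enzymes of fatty acid chains and glycerolipid entry, 7 enzymes of the isoprenoid steps, 9 enzymes of the sterol steps and 1 sterol transport gene. All 36 passed the filter on low counts and were tested. Gene positions below are on GRCm38 and span the whole annotated gene. Of the 36 genes, 14 share exon bases with another annotated gene and 6 of these with a protein-coding gene. Whether reads were counted by strand is not given in the sources used here, so the counts of Elovl1, Srebf1, Fdps, Fdft1, Cyp51 and Acss2, which overlap protein-coding genes, are uncertain to that extent.

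The RNA came from 16 cultures of mammary organoids of the mouse, small clusters of cells that grow in gel or medium and keep features of the tissue. The groups were WT organoids from normal breast (n = 3), PIK3CA mutant organoids from breast tumor (n = 4), HER2 mutant organoids from breast tumor (n = 4) and organoids from breast tumor with both HER2 and PIK3CA mutations (n = 5, called double mutants). The series title names the alleles HER2V777L and PIK3CAH1047R, and its design text speaks of WT, single mutant and double mutant mice. All groups were grown in the same medium with epidermal growth factor, B27 supplement, N-acetyl-cysteine and medium conditioned with Rspo1 and Noggin. How the mutations were introduced, which cells carried them, the strain and age of the mice, and whether each sample came from a separate mouse are not given in the sources used here. P-values therefore measure the spread between these samples, which may be in part technical. Genotype and tissue source are the same split in every comparison with WT, and their parts cannot be told apart.

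Mammalian cells make fatty acids from acetyl-CoA, which Acly and Acss2 produce, Acaca carboxylates, and Fasn condenses into palmitate with NADPH from enzymes such as Me1. Cholesterol is made from the same precursor through mevalonate, isoprenoids, squalene and lanosterol. The SREBP transcription factors, encoded by Srebf1 and Srebf2, are held in the endoplasmic reticulum by Scap and the Insig proteins when sterols are plentiful and are processed and move to the nucleus when sterols are scarce. SREBP-2 mainly acts on cholesterol genes and SREBP-1c mainly on fatty acid genes, and the lactating mammary gland is known for a high rate of fatty acid synthesis for milk fat.

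Total counts ranged from 45545182 to 64168308 per sample. Levels are given as CPM, a gene's count divided by the sample's total count, with a TMM scaling factor applied to the total, and brought to a common scale. Erbb2, the mouse gene for HER2, lay between 2696 and 4632 CPM in HER2 mutants and between 1499 and 2751 CPM in double mutants, against 145 to 171 CPM in WT and 149 to 188 CPM in PIK3CA mutants. Epithelial genes were present in each sample, with a summed level of 7 basal markers of 259 to 1368 CPM. The 7 luminal markers summed to 2297 to 2537 CPM in WT and 3347 to 3939 CPM in PIK3CA mutants. They summed to 2201 to 3170 CPM in HER2 mutants and 2980 to 5146 CPM in double mutants. In double mutants the luminal marker Krt8 and the basal marker Krt17 were higher than in WT, and the basal marker Myh11 was lower. The WT organoids also held signal of other cells. The summed level of 8 macrophage markers was 544 to 3386 CPM in WT, 14.1 to 37.0 CPM in PIK3CA mutants, 9.42 to 218 CPM in HER2 mutants and 12.8 to 67.5 CPM in double mutants, and 8, 6 and 8 of these markers were lower than in WT in PIK3CA, HER2 and double mutants. The 7 fibroblast markers summed to 352 to 1940 CPM in WT, 68.1 to 485 CPM in PIK3CA mutants, 35.2 to 639 CPM in HER2 mutants and 26.6 to 60.7 CPM in double mutants. In PIK3CA, HER2 and double mutants, 1, 2 and 6 of these 7 markers were lower than in WT. Adipocytes, which express many of the genes described here, left little signal. Their 8 markers summed to 7.30 to 17.5 CPM in WT and 1.89 to 6.19 CPM over all mutant samples, and Adipoq was at most 0.1 CPM in WT and at 0 in at least 1 sample of each genotype. In these bulk samples, fewer cells of a type and less RNA per cell cannot be told apart. The part of these marker differences in the results below was not tested.

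Many genes of cholesterol and fatty acid synthesis were higher in organoids with a HER2 mutation than in WT organoids. In double mutants 20 of the 36 genes rose against WT and 0 fell, in HER2 mutants 14 rose and 0 fell, and in PIK3CA mutants 1 rose and 0 fell. Over all 24252 genes tested, 5.03% were higher and 6.72% lower in double mutants, 4.75% higher and 5.63% lower in HER2 mutants, and 1.49% higher and 3.03% lower in PIK3CA mutants. Here a gene is called higher or lower when its adjusted p was under 0.05 in edgeR's quasi-likelihood test, with adjustment over all genes tested. The median log2 fold change of the 36 genes was 1.06 in double mutants, 0.94 in HER2 mutants and 0.44 in PIK3CA mutants, beside 0.01, 0.03 and -0.03 for all genes tested. These comparisons share the same 3 WT samples. Of 8 milk protein genes, 7 were called higher than in WT in HER2 mutants, 3 in double mutants and 0 in PIK3CA mutants. Their part in the result was not tested.

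Genes of the sterol steps had the largest share of calls among the roles with several genes, in both HER2 and double mutants. In double mutants 7 of 9 genes of the sterol steps and 5 of 7 of the isoprenoid steps rose, with 3 of 5 precursor supply genes, 3 of 7 regulators, 2 of 7 chain enzymes and 0 of 1 sterol transport gene. In HER2 mutants the same groups gave 5 of 9, 3 of 7, 2 of 5, 2 of 7, 2 of 7 and 0 of 1. Called in both genotypes were 13 genes: Acat2, Acss2, Cyp51, Dhcr7, Fasn, Hmgcs1, Insig1, Lss, Msmo1, Mvd, Sc5d, Scd2 and Srebf2. Acly was called in HER2 mutants and not in double mutants, and Acaca, Fdft1, Fdps, Me1, Mid1ip1, Pmvk and Sqle in double and not in HER2 mutants, but the direct comparison of these genotypes called 0 of the 36. The 14 genes called in no comparison were Acacb, Elovl1, Elovl5, Elovl6, Gpam, Hsd17b7, Idi1, Insig2, Mvk, Nsdhl, Scap, Scd1, Srebf1 and Stard4.

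The count in HER2 mutants depended on the fit and on single libraries. When only the 7 HER2 mutant and WT samples were fitted, which takes the spread from these samples alone, Fasn was the 1 gene called, and 0.96% of all genes were called higher. When the same was done for PIK3CA mutants and WT, 15 of the 36 genes were called higher and 2, Scap and Srebf1, lower, beside 8.58% higher and 9.7% lower over all genes. HER2 mutant replicate 2 had the lowest level of its genotype for 25 of the 36 genes and the highest for 0. Without it, 21 genes rose in HER2 mutants (beside 5.37% of all genes), and without HER2 mutant replicate 1, which had the highest level for 25 of the 36, 7 did (beside 4.51%). Among PIK3CA mutants, replicate 1 was highest for 24 of the 36 genes. Among double mutants, replicate 1 was highest for 17 and replicate 3 lowest for 23. Leaving out WT replicate 1, 2 or 3 left 5, 7 or 4 genes higher in HER2 mutants (beside 1.58%, 3.01% or 1.12% of all genes) and 13, 12 or 11 in double mutants (beside 1.99%, 3.66% or 1.49%). In PIK3CA mutants the single call was lost without WT replicate 3, where 0.335% of all genes were higher.

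**Figure D1:**
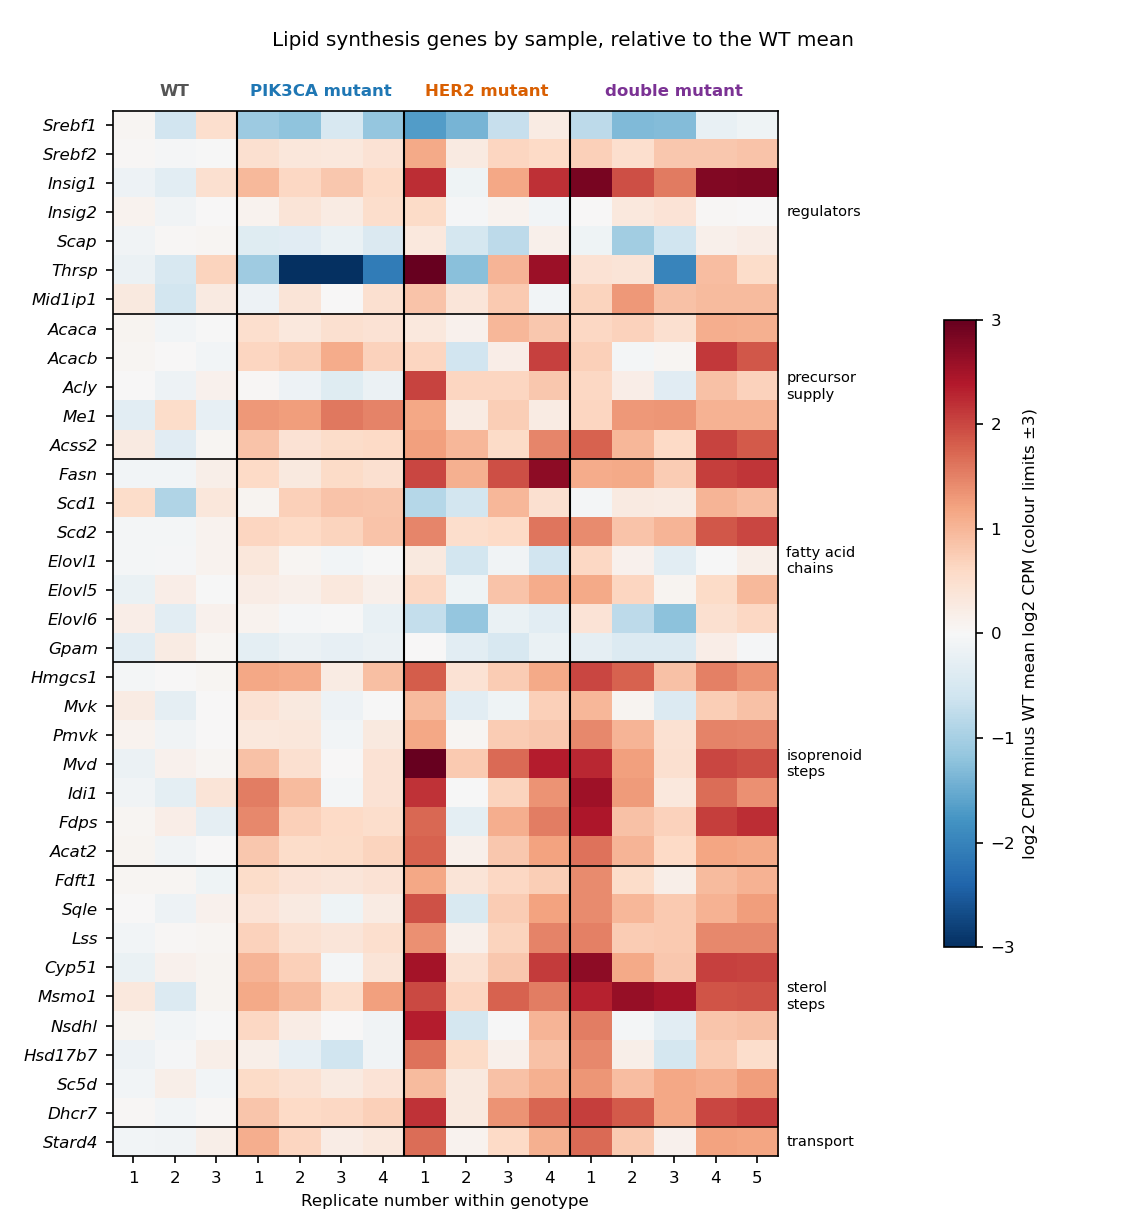
Levels of the 36 genes (rows, grouped by role) in each of the 16 samples (columns, by genotype and replicate number), as log2 CPM minus the mean of the WT samples, with red above and blue below WT and colours limited at 3 log2 units on either side. The isoprenoid and sterol rows are red across most HER2 and double mutant samples. They are pale in HER2 mutant replicate 2, where some, such as Sqle and Nsdhl, are blue. Srebf1 is blue in most mutant samples.

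**Figure D2:**
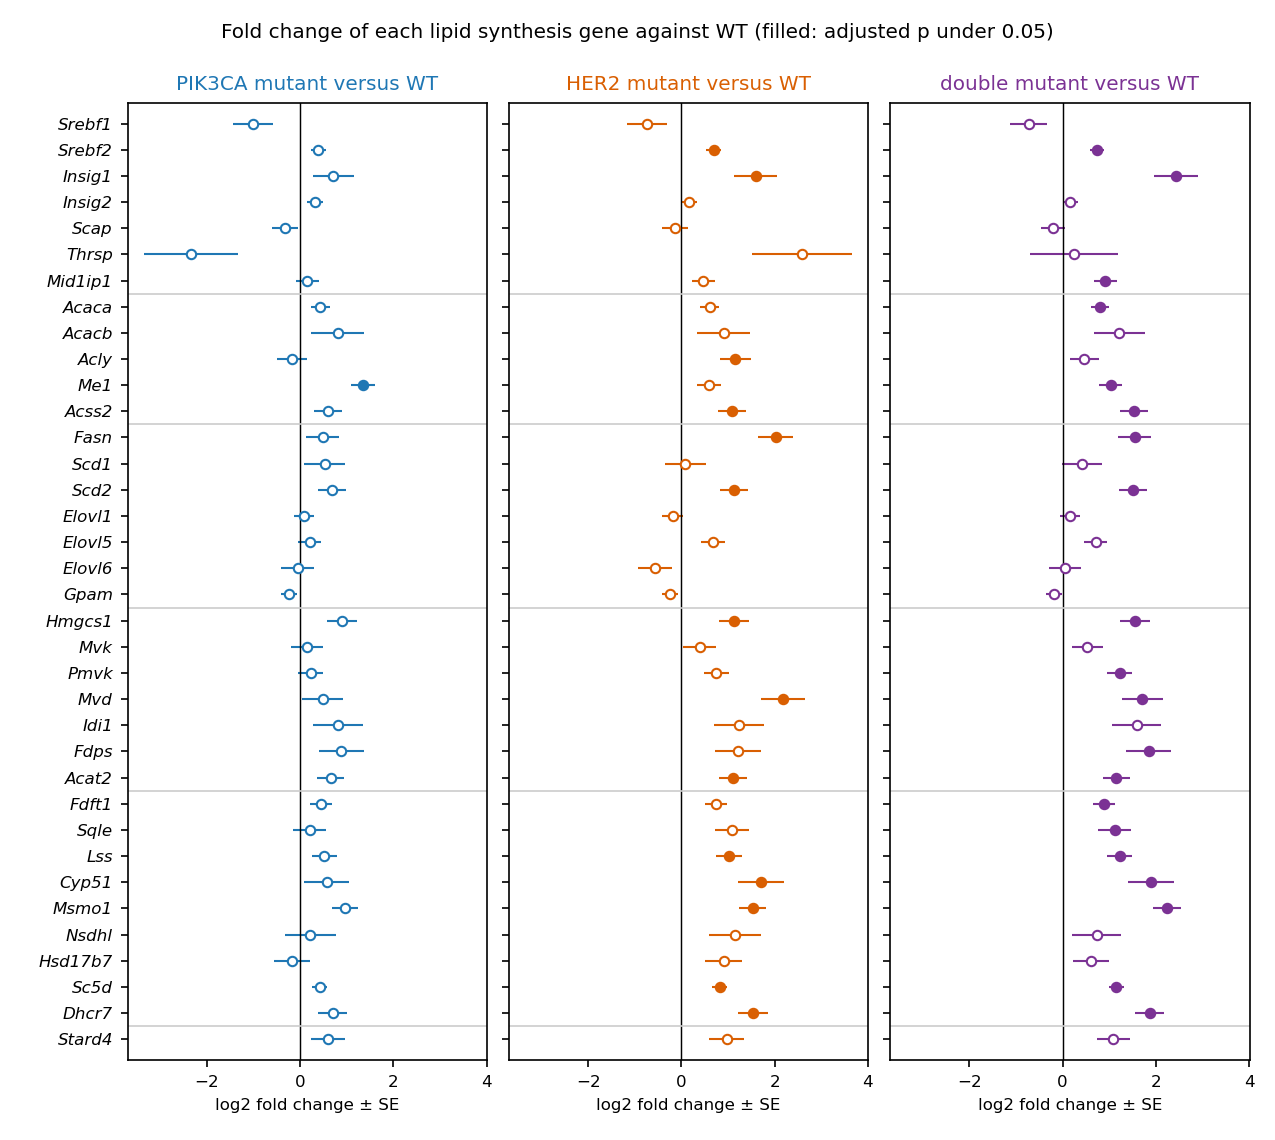
Log2 fold change against WT with its standard error for each of the 36 genes, in PIK3CA mutants (n = 4), HER2 mutants (n = 4) and double mutants (n = 5), each set against the same 3 WT samples. Filled points passed an adjusted p of 0.05, which 1, 14 and 20 genes did.

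Promoter sequence was available for 30 of the 36 genes in RefSeq's mouse set on GRCm38.p6, with Scd1, Scd2, Fdps, Fdft1, Sqle and Stard4 without an entry. The 250 bases before each start were searched on both strands for a sterol regulatory element spelled TCACNCCAC or TCANCCCAC, for the CCAAT box (CCAAT), for an E-box (CACGTG) and for a GC box (GGGCGG), and a gene with several entries counted if any of them held the motif. The CCAAT box was found in 24 of the 30 genes (80%), beside 39.5% of 17492 protein-coding genes and 33.8% of all 32851 promoters counted by entry. A GC box was found in 23 (76.7%, beside 45.8% of protein-coding genes and 32.7% of all promoters) and an E-box in 6 (20%, beside 7.61% and 6.02%). TCACNCCAC was found in Hmgcs1, beside 1.2% of protein-coding genes and 1.05% of all promoters, and TCANCCCAC in Hmgcs1, where both spellings match the same bases, and in Mid1ip1, beside 1.39% and 1.17%. No match says only that these letters are not in this window. The 150 bases before the RefSeq start of Hmgcs1, Mvd, Sc5d and Fasn, and 150 bases ending 49 bases before that of Insig1, are shown because these genes, from both branches and the regulators, were called higher than WT in both HER2 and double mutants. They run 5′ to 3′ on the gene's strand, with the motifs searched for, read on either strand, in capitals (ATTGG and CCGCCC are the CCAAT and GC boxes on the other strand).
Hmgcs1, chr13:119690201-119690350, plus strand: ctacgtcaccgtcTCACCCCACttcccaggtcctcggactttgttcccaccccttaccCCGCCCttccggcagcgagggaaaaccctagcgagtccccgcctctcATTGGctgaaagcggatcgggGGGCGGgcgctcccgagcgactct
Mvd, chr8:122443423-122443572, minus strand: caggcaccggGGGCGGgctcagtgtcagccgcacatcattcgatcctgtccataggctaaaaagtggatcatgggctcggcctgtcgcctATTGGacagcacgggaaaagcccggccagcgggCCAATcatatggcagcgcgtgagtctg
Sc5d, chr9:42264301-42264450, minus strand: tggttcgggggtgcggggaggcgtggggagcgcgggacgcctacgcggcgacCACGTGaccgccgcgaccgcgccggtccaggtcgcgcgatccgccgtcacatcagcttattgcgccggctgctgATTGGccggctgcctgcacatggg
Fasn, chr11:120824548-120824697, minus strand: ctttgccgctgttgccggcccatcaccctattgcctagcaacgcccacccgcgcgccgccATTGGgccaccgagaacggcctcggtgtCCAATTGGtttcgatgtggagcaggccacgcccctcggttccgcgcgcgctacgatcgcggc
Insig1, chr5:28071213-28071362, plus strand: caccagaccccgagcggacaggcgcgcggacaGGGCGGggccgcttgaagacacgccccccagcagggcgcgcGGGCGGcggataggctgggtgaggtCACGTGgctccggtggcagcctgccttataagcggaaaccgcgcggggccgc
The stretch of Fasn holds 3 matches to the CCAAT box, of which the pair in CCAATTGG overlap on opposite strands, and that of Mvd holds 2. A match describes the letters and does not show binding.

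Among the regulators, Srebf2, Insig1 and Mid1ip1 rose in double mutants, and Srebf2 and Insig1 rose in HER2 mutants. Srebf2 (ENSMUSG00000022463, chr15:82147181-82205379), which encodes SREBP-2, had 173, 166 and 168 CPM in WT, 237, 213, 209 and 227 CPM in PIK3CA mutants, 369, 205, 266 and 256 CPM in HER2 mutants and 276, 240.3, 297, 298 and 304 CPM in double mutants. Every mutant sample was above every WT sample. The log2 fold change was 0.70 in HER2 mutants (edgeR's adjusted p 0.0137 with SE 0.16; not called in 2 of 7 leave-one-out fits) and 0.74 in double mutants (edgeR's adjusted p 0.00553 with SE 0.16), and 0.39 in PIK3CA mutants, where it did not pass the threshold (edgeR's adjusted p 0.216 with SE 0.16).

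Insig1 (ENSMUSG00000045294, chr5:28071363-28078662), which retains Scap and is itself a target of the SREBPs, showed the largest called increase of the 36 genes in double mutants. Its level was 23.8, 21.3 and 37.1 CPM in WT, 52.0, 40.7, 46.5 and 40.2 CPM in PIK3CA mutants, 124, 24.2, 59.8 and 123 CPM in HER2 mutants and 192, 102, 78.6, 183 and 186 CPM in double mutants. All double mutant samples lay above all WT and all PIK3CA mutant samples, whereas HER2 mutant replicate 2, at 24.2 CPM, lay within the WT range. The rise was 5.41-fold in double mutants (log2 fold change 2.43, edgeR's adjusted p 0.00304 with SE 0.46) and 3.01-fold in HER2 mutants (log2 fold change 1.59, edgeR's adjusted p 0.0375 with SE 0.46), and 5 of 7 leave-one-out fits, each without 1 replicate, did not call it in HER2 mutants. In PIK3CA mutants the log2 difference was 0.71 (edgeR's adjusted p 0.462 with SE 0.44).

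Srebf1 (ENSMUSG00000020538, chr11:60199089-60222581), which encodes SREBP-1, did not share this direction. It had 2279, 1482 and 3132 CPM in WT, 1029, 955, 1586 and 985 CPM in PIK3CA mutants, 691, 839, 1357 and 2615 CPM in HER2 mutants and 1275, 873, 896, 1893 and 2018 CPM in double mutants. The groups overlapped in each comparison, with WT replicate 3 the highest of the 16 samples and HER2 mutant replicate 1 the lowest. The log2 fold changes of PIK3CA, HER2 and double mutants against WT were -1.01, -0.74 and -0.72 (with SEs of 0.42, 0.42 and 0.40), and none passed the threshold (edgeR adjusted p 0.225, 0.288 and 0.263). Srebf1 was called lower in HER2 mutants without HER2 mutant replicate 4, and in PIK3CA mutants when these and WT were fitted alone. Gene-level counts do not separate the SREBP-1a and SREBP-1c transcripts, and transcript levels do not show how much of the protein was processed.

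Scap (ENSMUSG00000032485, chr9:110333288-110384950), the escort protein of the SREBPs, had 89.3, 97.6 and 100.1 CPM in WT, 74.8, 75.5, 83.3 and 71.1 CPM in PIK3CA mutants, 119, 66.1, 55.9 and 106 CPM in HER2 mutants and 88.0, 46.7, 63.5, 106 and 111 CPM in double mutants. All PIK3CA mutant samples were below all WT samples, but the log2 difference of -0.33 did not pass the threshold (edgeR's adjusted p 0.614 with SE 0.28). The fit of these samples alone called Scap lower. In HER2 and double mutants the samples fell on both sides of WT, with log2 differences of -0.14 and -0.20 (edgeR adjusted p 0.797 and 0.668). Insig2, the second Insig protein, ranged from 22.0 to 25.5 CPM in WT and from 23.9 to 31.5 CPM in double mutants and was called in no comparison. Mid1ip1, which promotes acetyl-CoA carboxylase polymerization, had 10.1 to 18.01 CPM in WT, 13.3 to 20.5 CPM in PIK3CA mutants, 14.1 to 26.7 CPM in HER2 mutants and 23.5 to 36.3 CPM in double mutants, where it rose (1.89-fold, log2 fold change 0.92, edgeR's adjusted p 0.0243 with SE 0.25). In 3 of 8 leave-one-out fits Mid1ip1 was not called.

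Thrsp (ENSMUSG00000035686, chr7:97412938-97417730), a lipogenic protein of mammary gland, liver and fat, varied widely between samples of a genotype. It had 7.95, 6.42 and 14.5 CPM in WT, 4.29, 0.0826, 1.04 and 2.07 CPM in PIK3CA mutants, 156, 3.78, 18.4 and 53.5 CPM in HER2 mutants and 12.2, 11.8, 2.26, 17.2 and 13.3 CPM in double mutants. All PIK3CA mutant samples were below all WT samples, and HER2 mutants spread from replicate 2, below WT, to replicate 1, the highest of the 16 samples. Against WT the log2 difference was -2.35 in PIK3CA mutants, 2.59 in HER2 mutants and 0.24 in double mutants (SE 1.01, 1.07 and 0.94), with none past the threshold (edgeR adjusted p 0.239, 0.139 and 0.899).

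**Figure D3:**
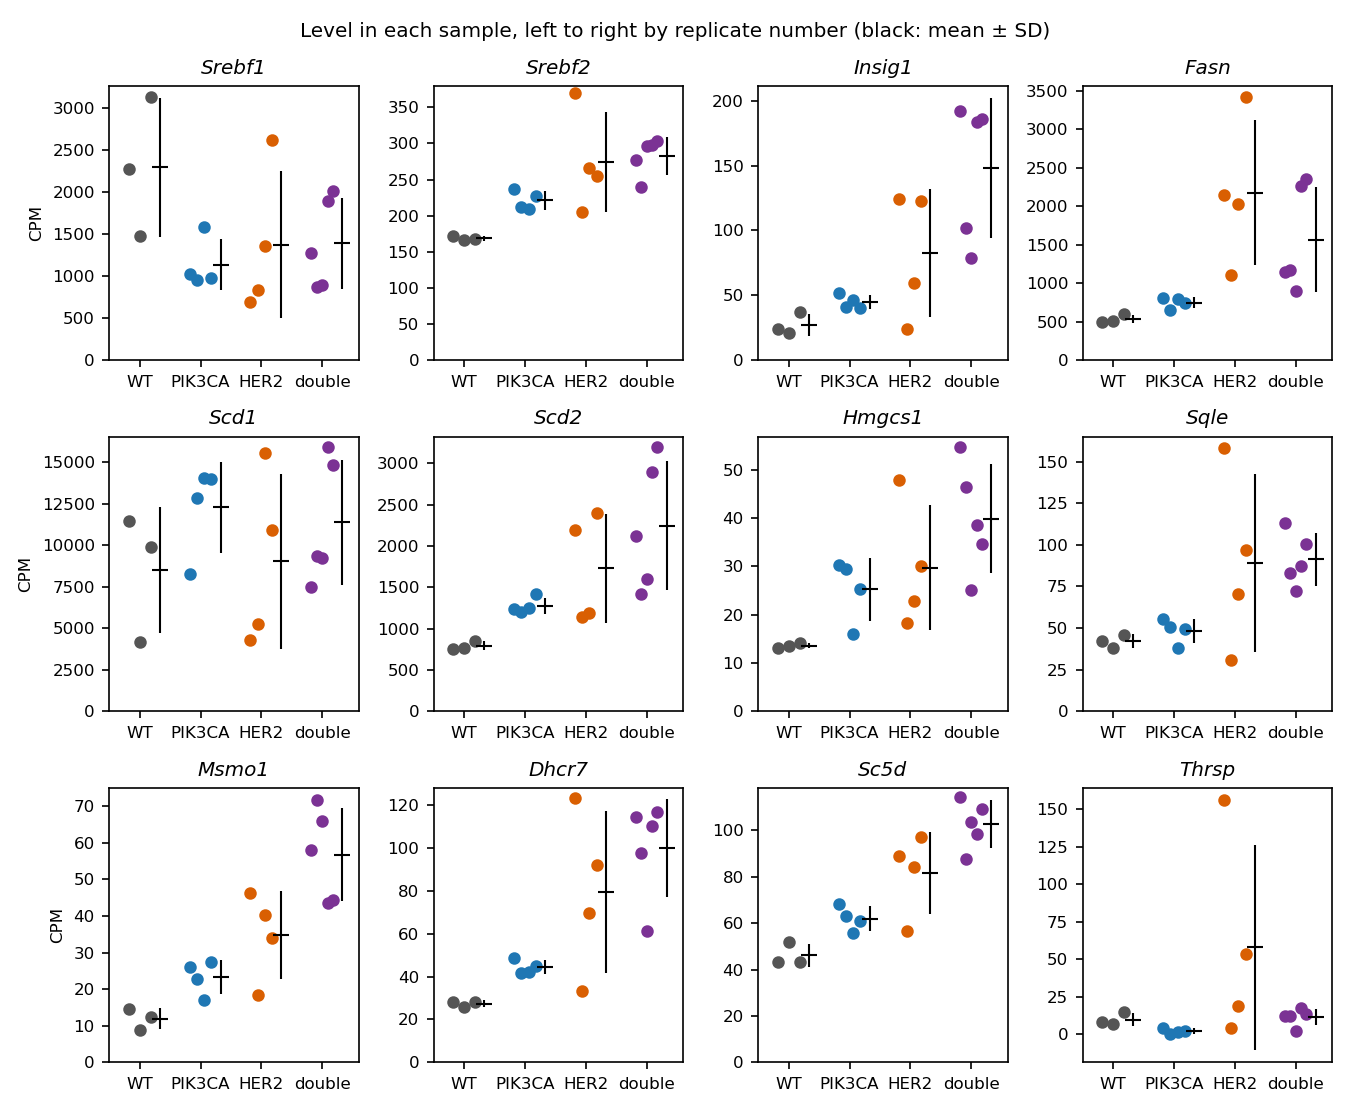
CPM of 12 of the genes in each sample (points, ordered from left to right by replicate number) with the mean and SD of each genotype in black (n = 3 for WT, 4 for each single mutant and 5 for double mutants); each vertical axis has its own scale. Msmo1, Dhcr7 and Sc5d lie lowest in WT and highest on average in double mutants, Scd1 overlaps between all genotypes, and Srebf1 is lower on average in each mutant genotype than in WT.

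In precursor supply, Me1 was the 1 gene of the 36 called in PIK3CA mutants. Me1 (ENSMUSG00000032418, chr9:86581371-86695953), cytosolic malic enzyme and a source of NADPH, had 144, 262 and 151 CPM in WT, 439.7, 424, 532 and 500.2 CPM in PIK3CA mutants, 401, 212, 299 and 211 CPM in HER2 mutants and 278, 441, 447, 371 and 365 CPM in double mutants. PIK3CA and double mutant samples were all above WT, and HER2 mutants overlapped WT and lay below all PIK3CA mutant samples. The rise was 2.55-fold in PIK3CA mutants (log2 fold change 1.35, edgeR's adjusted p 0.0062 with SE 0.26) and 2.05-fold in double mutants (log2 fold change 1.03, edgeR's adjusted p 0.013 with SE 0.25). In HER2 mutants the log2 difference from WT was 0.60 (edgeR's adjusted p 0.151 with SE 0.25) and that from PIK3CA mutants -0.76 (edgeR's adjusted p 0.0774 with SE 0.23), neither past the threshold. The call in double mutants was lost in 2 of 8 leave-one-out fits and without double mutant replicates 2 and 3, left out together because they lay apart from the other double mutants in earlier results of these data.

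Acly (ENSMUSG00000020917, chr11:100476353-100528000), ATP citrate lyase, had 190.1, 169 and 204 CPM in WT, 191, 167, 145 and 165 CPM in PIK3CA mutants, 764, 292, 291 and 329 CPM in HER2 mutants and 289, 215, 148, 342 and 304 CPM in double mutants. HER2 mutants were all above WT and all above PIK3CA mutants, with replicate 1 far above the others of its genotype. Acly rose in HER2 mutants against WT (2.23-fold, log2 fold change 1.16, edgeR's adjusted p 0.0355 with SE 0.33). In 4 of 7 leave-one-out fits Acly was not called. In double mutants the log2 difference from WT was 0.47 (edgeR's adjusted p 0.358 with SE 0.31).

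Acaca (ENSMUSG00000020532, chr11:84129672-84401651), acetyl-CoA carboxylase 1 and the committed step of fatty acid synthesis, had 236, 209.8 and 220.1 CPM in WT, 314, 275, 309 and 300.4 CPM in PIK3CA mutants, 278, 243, 442 and 390.4 CPM in HER2 mutants and 342, 356, 307, 474 and 467 CPM in double mutants. Each mutant sample was above each WT sample. Acaca rose 1.75-fold in double mutants (log2 fold change 0.81, edgeR's adjusted p 0.013 with SE 0.19; not called in 2 of 8 leave-one-out fits) and had log2 differences of 0.43 and 0.61 in PIK3CA and HER2 mutants that did not pass (edgeR adjusted p 0.28 and 0.0649). The cytosolic acetyl-CoA synthetase Acss2 lay at 8.08 to 12.4 CPM in WT, 13.9 to 18.6 in PIK3CA mutants, 15.4 to 28.2 in HER2 mutants and 15.6 to 41.7 in double mutants, and rose in the last pair of genotypes, with the call in HER2 mutants lost in 5 of 7 leave-one-out fits. Acacb, the carboxylase of the mitochondrial surface, lay at 16.7 to 18.3 CPM in WT and 27.3 to 38.1 CPM in PIK3CA mutants, all above WT. It lay at 11.8 to 72.7 CPM in HER2 mutants and 16.9 to 76.7 CPM in double mutants, which both overlapped WT. Acacb was called in no comparison of the fit of all samples.

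Of the fatty acid chain genes, Fasn and Scd2 rose in HER2 and double mutants. Fasn (ENSMUSG00000025153, chr11:120805846-120824547), fatty acid synthase, had 502, 505 and 598 CPM in WT, 808, 649, 797 and 739 CPM in PIK3CA mutants, 2149, 1114, 2029 and 3412 CPM in HER2 mutants and 1151, 1170.0, 901, 2265 and 2348 CPM in double mutants. All samples of each mutant genotype were above all WT samples, and all HER2 and double mutant samples were above all PIK3CA mutant samples. Fasn rose 4.07-fold in HER2 mutants (log2 fold change 2.02, edgeR's adjusted p 0.00386 with SE 0.37) and 2.93-fold in double mutants (log2 fold change 1.55, edgeR's adjusted p 0.00948 with SE 0.35). Both calls held in each alternative fit and each fit that left out a replicate. In PIK3CA mutants the log2 difference was 0.48 (edgeR's adjusted p 0.544 with SE 0.35).

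The desaturases Scd1 and Scd2, neighbours on chromosome 19 that make monounsaturated fatty acids, gave different results: Scd2 was called in HER2 and double mutants and Scd1 in no comparison. Scd2 (ENSMUSG00000025203, chr19:44293674-44306864) had 755, 765 and 854 CPM in WT, 1239, 1201, 1249 and 1422 CPM in PIK3CA mutants, 2191, 1137, 1193 and 2396 CPM in HER2 mutants and 2117, 1419.8, 1606, 2897 and 3193 CPM in double mutants. No mutant sample overlapped WT, and the log2 fold change was 1.13 in HER2 mutants (edgeR's adjusted p 0.0291 with SE 0.30, lost in 5 of 7 fits that left out a replicate) and 1.51 in double mutants (edgeR's adjusted p 0.00409 with SE 0.30). In PIK3CA mutants it was 0.69 (edgeR's adjusted p 0.244 with SE 0.30).

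Scd1 (ENSMUSG00000037071, chr19:44394455-44407879) had 11441, 4199 and 9859 CPM in WT, 8247, 12855, 14015 and 13965 CPM in PIK3CA mutants, 4302, 5281, 15569 and 10924 CPM in HER2 mutants and 7489.8, 9366, 9242, 15895 and 14812 CPM in double mutants. The genotypes overlapped throughout, with WT replicate 2 the lowest of all samples. Log2 differences from WT were 0.53, 0.09 and 0.42 (SE 0.44, 0.44 and 0.42; edgeR adjusted p 0.61, 0.926 and 0.571), and the difference in HER2 mutants changed sign in several alternative fits. Scd1 and Scd2 are similar in sequence, and how reads that fit both were counted is not given in the sources used here. The elongases Elovl1, Elovl5 and Elovl6 and Gpam, which starts glycerolipid synthesis, were called in no comparison; their levels in WT ranged from 51.6 to 58.3, 70.4 to 93.1, 68.1 to 96.2 and 38.9 to 57.5 CPM and in double mutants from 43.2 to 83.4, 85.1 to 176, 35.8 to 129.9 and 36.4 to 55.6 CPM.

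Per length of transcript 3 genes of fatty acid chains and Srebf1 were the most abundant. Scd1 had a mean over the genotypes of 2103 RPKM, which is CPM divided by the length of merged exons in kilobases, followed by Scd2 (277 RPKM), Srebf1 (275 RPKM) and Fasn (115 RPKM). Among the isoprenoid and sterol genes Sc5d had the highest mean level, at 15.0 RPKM, and Fdps, at 0.615 RPKM, the lowest of all 36 genes. Fdps shares 1124 exon bases with Gm43738 on the same strand and has near-identical copies in the genome, so reads assigned to it may be a part of those it gave.

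In the isoprenoid steps, which lead from acetyl-CoA through mevalonate to farnesyl diphosphate, Acat2, Hmgcs1 and Mvd rose in both HER2 and double mutants, and Pmvk and Fdps in double mutants. Hmgcs1 (ENSMUSG00000093930, chr13:119690379-119708260), the cytosolic HMG-CoA synthase, had 13.1, 13.6 and 14.0 CPM in WT, 30.2, 29.5, 16.1 and 25.2 CPM in PIK3CA mutants, 47.8, 18.3, 22.9 and 30.0 CPM in HER2 mutants and 54.6, 46.4, 25.1, 38.5 and 34.5 CPM in double mutants. Each mutant sample was above the WT samples, which lay close together. The log2 fold change was 1.13 in HER2 mutants (edgeR's adjusted p 0.034 with SE 0.32) (not called in 4 of 7 leave-one-out fits) and 1.55 in double mutants (edgeR's adjusted p 0.00443 with SE 0.31). In PIK3CA mutants it was 0.90 (edgeR's adjusted p 0.136 with SE 0.31).

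Mvd (ENSMUSG00000006517, chr8:122433601-122443422), mevalonate diphosphate decarboxylase, showed the largest called increase of the 36 genes in HER2 mutants. It had 5.98, 7.32 and 6.97 CPM in WT, 12.4, 9.40, 6.75 and 9.15 CPM in PIK3CA mutants, 54.3, 11.7, 21.8 and 34.7 CPM in HER2 mutants and 32.5, 15.9, 9.36, 27.1 and 26.0 CPM in double mutants. HER2 and double mutant samples were all above WT, while PIK3CA mutants overlapped it. The rise was 4.53-fold in HER2 mutants (log2 fold change 2.18, edgeR's adjusted p 0.00963 with SE 0.47) and 3.28-fold in double mutants (log2 fold change 1.71, edgeR's adjusted p 0.0209 with SE 0.45). Mvd was not called in 1 of 7 leave-one-out fits in HER2 mutants and 3 of 8 in double mutants. Acat2, a cytosolic acetyl-CoA acetyltransferase, lay at 11.1 to 12.6 CPM in WT, 13.2 to 41.1 CPM in HER2 mutants and 18.1 to 36.7 CPM in double mutants, with calls lost in 4 of 7 and 3 of 8 leave-one-out fits. Pmvk, phosphomevalonate kinase, lay at 6.00 to 6.96, 6.78 to 14.4 and 8.87 to 18.3 CPM. Fdps, farnesyl diphosphate synthase, was low throughout, with 0.968 to 1.36 CPM in WT and 1.92 to 6.51 CPM in double mutants, a call lost in 3 of 8 leave-one-out fits. Mvk (mevalonate kinase, 5.42 to 7.74 CPM in WT and 4.93 to 13.0 CPM in double mutants) and Idi1 (isopentenyl diphosphate isomerase, 2.70 to 4.32 and 4.12 to 19.2 CPM) were not called. Idi1 had a log2 difference of 1.59 in double mutants with a wide spread (edgeR's adjusted p 0.0643 with SE 0.53).

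In the sterol steps, from squalene synthase (Fdft1) to cholesterol, Lss, Cyp51, Msmo1, Sc5d and Dhcr7 rose in both HER2 and double mutants, and Fdft1 and Sqle in double mutants. Msmo1 (ENSMUSG00000031604, chr8:64718139-64733792), which removes methyl groups from lanosterol's products, had 14.6, 8.87 and 12.4 CPM in WT, 26.0, 22.8, 17.03 and 27.5 CPM in PIK3CA mutants, 46.3, 18.3, 40.2 and 33.9 CPM in HER2 mutants and 58.1, 71.8, 65.9, 43.5 and 44.4 CPM in double mutants. All samples of each mutant genotype were above WT, and all double mutants were above all PIK3CA mutants. The rise against WT was 4.73-fold in double mutants (log2 fold change 2.24, edgeR's adjusted p 0.000321 with SE 0.30) and 2.89-fold in HER2 mutants (log2 fold change 1.53, edgeR's adjusted p 0.00493 with SE 0.29). In PIK3CA mutants the log2 difference of 0.96 did not pass (edgeR's adjusted p 0.0731 with SE 0.29), though DESeq2 called it.

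Sc5d (ENSMUSG00000032018, chr9:42251595-42264256), the sterol C5 desaturase, had 43.4, 52.0 and 43.3 CPM in WT, 68.4, 62.9, 55.6 and 60.8 CPM in PIK3CA mutants, 88.8, 56.5, 84.2 and 97.2 CPM in HER2 mutants and 115, 87.6, 103, 98.3 and 109 CPM in double mutants. No mutant sample overlapped WT. The spread was widest in HER2 mutants, where replicate 2, at 56.5 CPM, was lowest. A rise of 2.22-fold in double mutants (log2 fold change 1.15, edgeR's adjusted p 0.000403 with SE 0.16) and of 1.77-fold in HER2 mutants (log2 fold change 0.82, edgeR's adjusted p 0.00645 with SE 0.17) both passed.

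Dhcr7 (ENSMUSG00000058454, chr7:143823145-143848410), which completes cholesterol from 7-dehydrocholesterol, had 28.2, 25.7 and 28.2 CPM in WT, 48.7, 41.5, 42.1 and 45.05 CPM in PIK3CA mutants, 123, 33.4, 69.4 and 91.7 CPM in HER2 mutants and 114, 97.6, 61.3, 110.0 and 117 CPM in double mutants. Again no mutant sample overlapped WT, and HER2 mutant replicate 2 stayed closest to it. Dhcr7 rose 2.90-fold in HER2 mutants (log2 fold change 1.53, edgeR's adjusted p 0.00799 with SE 0.32) and 3.65-fold in double mutants (log2 fold change 1.87, edgeR's adjusted p 0.00133 with SE 0.32).

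Cyp51 (ENSMUSG00000001467, chr5:4081145-4104746), lanosterol 14-alpha demethylase, had 10.6, 13.2 and 12.9 CPM in WT, 24.7, 20.2, 11.7 and 15.9 CPM in PIK3CA mutants, 69.5, 16.7, 21.5 and 52.3 CPM in HER2 mutants and 78.5, 27.1, 21.4, 51.0 and 50.1 CPM in double mutants. HER2 and double mutant samples were all above WT, and PIK3CA mutants overlapped it. The log2 fold change was 1.70 in HER2 mutants (edgeR's adjusted p 0.0391 with SE 0.49), lost in 5 of 7 fits that left out a replicate, and 1.89 in double mutants (edgeR's adjusted p 0.019 with SE 0.49), lost in 3 of 8. Cyp51 shares 166 exon bases with Akap9 on the opposite strand.

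Sqle (ENSMUSG00000022351, chr15:59315077-59331192), squalene epoxidase, had 42.5, 37.9 and 46.0 CPM in WT, 55.4, 50.5, 38.1 and 49.5 CPM in PIK3CA mutants, 158, 30.7, 70.6 and 96.9 CPM in HER2 mutants and 113, 83.3, 72.1, 87.1 and 101 CPM in double mutants. Double mutants were all above WT and PIK3CA mutants, and HER2 mutants held both the highest sample, replicate 1, and the lowest, replicate 2. The log2 fold change of 1.12 in double mutants was just past the threshold (edgeR's adjusted p 0.0491 with SE 0.35) and was lost in each of the 8 fits that left out a replicate. In HER2 mutants the log2 difference was 1.08 (edgeR's adjusted p 0.0675 with SE 0.36).

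The other called sterol genes were Lss, lanosterol synthase, at 26.4 to 29.0 CPM in WT, 31.2 to 78.7 CPM in HER2 mutants and 47.1 to 79.5 CPM in double mutants, and Fdft1 at 25.2 to 28.7, 35.7 to 61.1 and 31.0 to 73.7 CPM. The call of Lss in HER2 mutants was lost in 5 of 7 leave-one-out fits, and that of Fdft1 in double mutants in 3 of 8. Fdft1 shares 774 exon bases with the abundant gene Ctsb on the opposite strand. Nsdhl (10.5 to 11.8 CPM in WT and 8.87 to 32.0 CPM in double mutants) and Hsd17b7 (7.45 to 9.44 and 5.77 to 22.5 CPM), both of which act in sterol demethylation, were not called. Stard4, a carrier of cholesterol within the cell, had 10.1 to 12.3 CPM in WT and 11.8 to 35.6 CPM in double mutants, a log2 difference of 1.09 that did not pass (edgeR's adjusted p 0.061 with SE 0.36).

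The samples of PIK3CA mutants lay above WT for many genes without a call. Of the 36 genes, 29 had a positive log2 difference from WT, 17 had every PIK3CA mutant sample above every WT sample and 2, Thrsp and Scap, every sample below. Over all genes tested, 13.8% had every PIK3CA mutant sample above every WT sample and 15.7% every sample below. In HER2 mutants 15 of the 36 genes and 9.81% of all genes had every sample above WT, and in double mutants 20 of the 36 and 9.68% of all genes. At an unadjusted p under 0.05, 9 genes were higher and 2 lower in PIK3CA mutants, beside 7.26% and 9.59% of all genes. The same counts were 25 and 0 in HER2 mutants, beside 13% and 12.7%, and 24 and 0 in double mutants, beside 13% and 14%.

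Double mutants were compared with PIK3CA mutants as the pair of genotypes that share the PIK3CA mutation and the tumor source. Msmo1 and Sc5d rose in double mutants and 0 genes fell, while 0.309% of all genes were higher and 0.363% lower. The log2 fold change was 1.28 for Msmo1 (edgeR's adjusted p 0.0342 with SE 0.25) and 0.73 for Sc5d (edgeR's adjusted p 0.0342 with SE 0.14). For 10 of the 36 genes, and 3.42% of all genes, every double mutant sample was above every PIK3CA mutant sample, and the median log2 difference was 0.65, beside 0.04 for all genes. The next 3 were Insig1 (1.72, edgeR's adjusted p 0.0642 with SE 0.40), Pmvk (1.00, edgeR's adjusted p 0.0665 with SE 0.23) and Dhcr7 (1.17, edgeR's adjusted p 0.0671 with SE 0.28), named here for their adjusted p. The calls were often lost when 1 library was left out, as were those over all genes, of which 163 were called with all samples. Of the 36 genes 0 were called without PIK3CA mutant replicate 1, 2, 3 or 4, beside 39, 21, 17 or 30 of all genes. Without double mutant replicate 1 or 5 the count was also 0, beside 69 or 50 of all genes. It was 1 without double mutant replicate 2 or 4 (beside 62 or 65) and 5 without replicate 3 (beside 143). With DESeq2, 7 genes rose (beside 1.37% of all genes), and 5 did when these genotypes were fitted alone (beside 0.756%). The summed fibroblast markers did not overlap between these genotypes, at 68.1 to 485 CPM in PIK3CA and 26.6 to 60.7 CPM in double mutants, although 0 of the 7 were called, and the milk gene Csn2 was called higher in double mutants. Their part in the result was not tested.

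HER2 and PIK3CA mutants were compared directly, again within tumor samples. Thrsp, Mvd, Fasn and Acly rose in HER2 mutants and 0 genes fell, beside 2.21% higher and 2.2% lower among all genes. The log2 fold change was 4.94 for Thrsp (edgeR's adjusted p 0.0181 with SE 1.07), 1.70 for Mvd (edgeR's adjusted p 0.0306 with SE 0.41), 1.54 for Fasn (edgeR's adjusted p 0.0167 with SE 0.33) and 1.329 for Acly (edgeR's adjusted p 0.0213 with SE 0.30). Fasn and Acly were higher in each HER2 mutant sample than in each PIK3CA mutant sample, and Thrsp and Mvd overlapped. Me1 was called lower with DESeq2 and without HER2 mutant replicate 1. Milk protein and epithelial genes differed in this comparison and in HER2 mutants against WT. The 8 milk genes summed to 6241 to 51873 CPM in HER2 mutants, 8718 to 14637 CPM in PIK3CA mutants and 3291 to 5539 CPM in WT. In HER2 mutants 4 of 8 were higher than in PIK3CA mutants and 7 of 8 higher than in WT. Double mutants, at 7118 to 22831 CPM, were also all above WT in this sum. The 7 basal markers summed to medians of 323 CPM in HER2 mutants, 1179 CPM in PIK3CA mutants and 881 CPM in WT. Their ranges were 259 to 971 CPM, 498 to 1368 CPM and 470 to 1011 CPM. HER2 mutant replicate 1, at 971 CPM, lay within the ranges of PIK3CA mutants and WT. In HER2 mutants 3 markers were lower than in PIK3CA mutants (Krt5, Acta2 and Myh11) and 2 lower than in WT (Krt5 and Myh11). Of the 7 luminal markers, Krt19 was lower in HER2 than in PIK3CA mutants. The part of these genes in the result was not tested. When these genotypes were fitted alone, Fasn was the 1 gene called, beside 1.11% of all genes called higher. Without PIK3CA mutant replicate 2, 3 or 4, 1 gene was called higher, beside 0.705%, 0.85% or 1.09% of all genes. Without HER2 mutant replicate 2, 8 rose, beside 2.62% of all genes.

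Between double and HER2 mutants, 0 of the 36 genes were called by edgeR, where 1.03% of all genes were higher and 1.47% lower in double mutants (249 and 357 genes, and 191 and 441 with upper-quartile scaling). DESeq2 and limma also called 0, and at an unadjusted p under 0.05, 3 genes were higher and 2 lower in edgeR's test, beside 7.82% and 9.99% of all genes. The groups overlapped for each of the 36 genes. Among the cell markers, 3 of 8 milk genes, 5 of 8 macrophage markers and Col3a1 were lower in double mutants, and Krt5, Krt8 and Krt19 were higher. Their part in the result was not tested. The smallest p was that of Msmo1 (log2 difference 0.71, edgeR's adjusted p 0.137 with SE 0.25), and Acly had the opposite sign (-0.69, edgeR's adjusted p 0.199 with SE 0.28). Insig1 had a log2 difference of 0.84 (edgeR's adjusted p 0.27 with SE 0.39) and Fasn one of -0.47 (edgeR's adjusted p 0.461 with SE 0.30). Without double mutant replicates 2 and 3, Acss2 and Elovl6 were called higher in double mutants, beside 2.65% of all genes higher and 2.05% lower.

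The interaction asked whether the change of double mutants from WT, in log2 units, differed from the PIK3CA and HER2 mutant changes added up. It called 0 of the 36 genes, with 1.06% of all genes called in either direction. DESeq2 and limma also called 0, and at an unadjusted p under 0.05 edgeR gave 1 gene with a negative and 0 with a positive estimate, beside 6.49% and 7.08% of all genes. The estimate was negative for 28 of the 36 genes, with a median of -0.25 beside 0.01 for all genes. WT, the only genotype from normal tissue, enters this estimate. A difference between tumor and normal tissue shared by all mutants would therefore enter it with the opposite sign. The parts of genotype and tissue source cannot be told apart here either. For Me1 it was -0.91 (edgeR's adjusted p 0.228 with SE 0.33) and for Fasn -0.96 (edgeR's adjusted p 0.39 with SE 0.46). Without double mutant replicates 2 and 3, Elovl6 was called with a positive estimate, as were 2.15% of all genes, and 2.02% were called with a negative one.

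By genotype mean, 22 of the 36 genes followed the order WT, PIK3CA mutant, HER2 mutant, double mutant, each higher than the one before. WT had the lowest mean for 28 genes and double mutants the highest for 24, HER2 mutants for 6 (among them Acly, Fasn, Mvd and Thrsp), PIK3CA mutants for 3 and WT for 3. These counts were not made over all genes tested, so they do not show whether the order is particular to the 36. Neighbours in this order did not differ past the threshold for most genes: PIK3CA mutants and WT differed for 1 gene, HER2 and PIK3CA mutants for 4, and double and HER2 mutants for 0.

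Across the 16 samples, the levels of the sterol branch genes varied together. Among the 120 pairs of the 16 isoprenoid and sterol genes the median Pearson r of log2 CPM was 0.845 and each r was positive, and after the genotype means had been subtracted it was 0.828, again with each r positive. The 66 pairs of the 12 precursor supply and fatty acid chain genes had a median r of 0.27, and 0.432 after subtraction. Between both sets the median was 0.556, and 0.523 after subtraction. Srebf2 had a median r of 0.823 with the 16 sterol branch genes (0.615 after subtraction) and Insig1 one of 0.874 (0.847), while Srebf1 had -0.118 (0.18). With the 12 precursor supply and fatty acid chain genes, Srebf1 had a median r of 0.0777, and 0.56 after subtraction. Srebf2 had 0.567 (0.386 after subtraction) with these 12 genes and Insig1 0.611 (0.664). These correlations describe samples that share a library and a depth for each pair of values, and they carry no test. The same values were not computed for pairs of other genes, so they do not show whether this is particular to these genes.

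The mean log2 CPM of the 9 sterol step genes, each taken relative to its own mean over all samples, was -0.74, -0.78 and -0.71 in WT, -0.07, -0.32, -0.59 and -0.34 in PIK3CA mutants, 1.04, -0.54, 0.03 and 0.56 in HER2 mutants and 1.00, 0.25, -0.02, 0.60 and 0.64 in double mutants. The range within HER2 mutants was wider than that between the means of the genotypes. Proliferation genes moved with it. The 6 proliferation markers summed to 68.7, 90.0 and 135 CPM in WT, 214, 172, 102 and 125 CPM in PIK3CA mutants, 449.7, 100.1, 97.3 and 202 CPM in HER2 mutants and 289.7, 156, 111, 179 and 204 CPM in double mutants. In PIK3CA mutants and in double mutants the samples had the same order by both measures, in HER2 mutants all but replicates 2 and 3 did, and in WT they did not. Of these markers 0 were called in PIK3CA mutants against WT, 1 of 6 in HER2 mutants (Cdk1) and 2 of 6 in double mutants (Ccnb1 and Cdk1). The part of proliferation in the level of the sterol genes was not tested. The 7 chain genes had means of -0.33, -0.46 and -0.20 in WT, -0.09, -0.09, -0.04 and -0.05 in PIK3CA mutants, 0.08, -0.49, 0.19 and 0.36 in HER2 mutants and 0.29, -0.07, -0.31, 0.56 and 0.64 in double mutants. Here HER2 mutant replicate 2 lay below all WT samples and double mutant replicate 3 within the WT range.

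**Figure D4:**
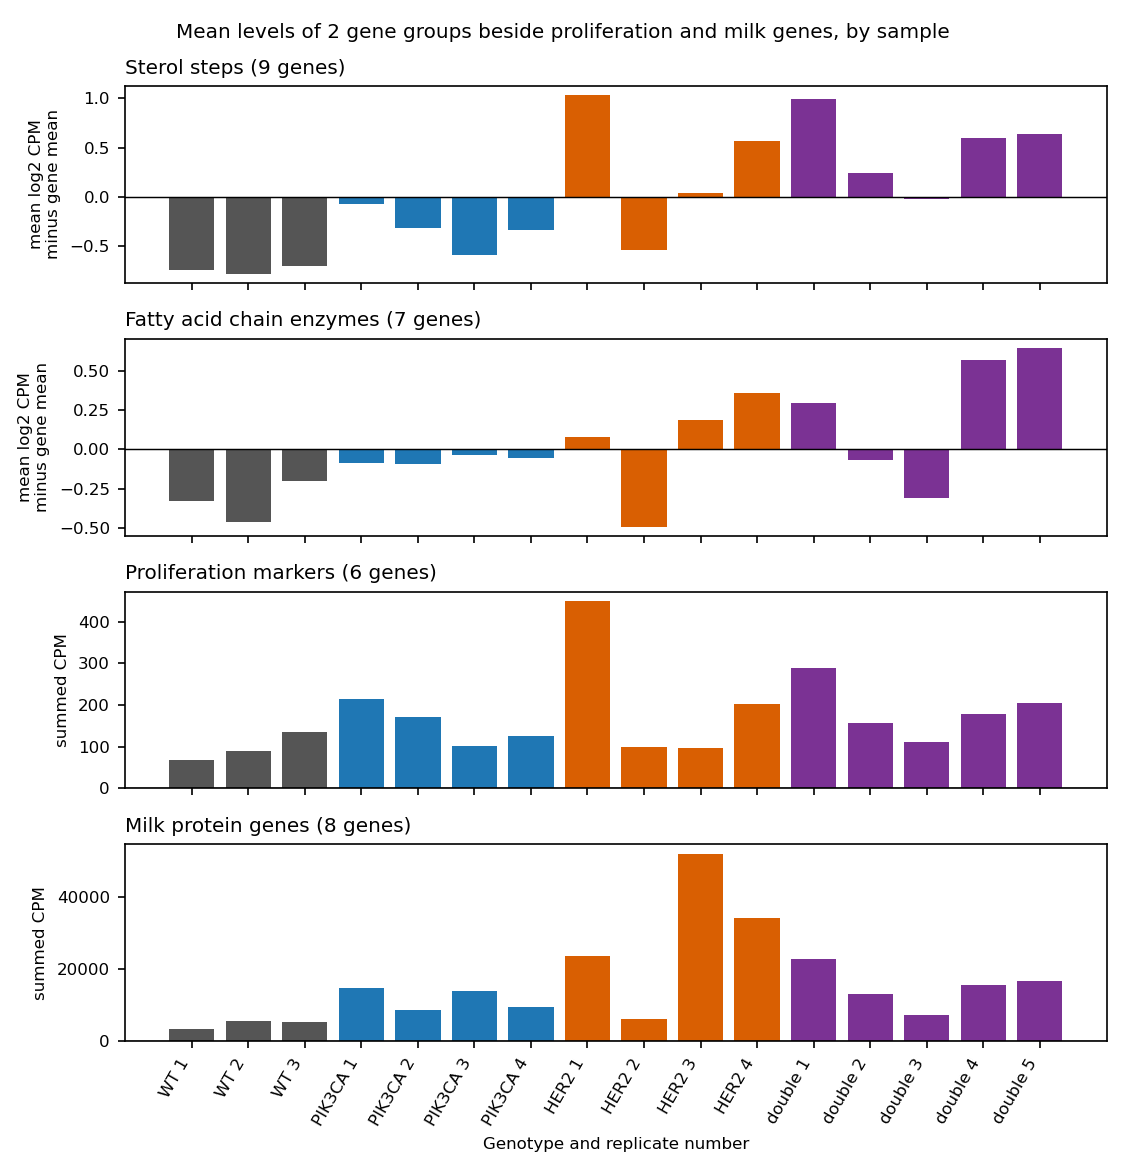
From top to bottom, the mean log2 CPM of the 9 sterol step genes and of the 7 chain genes (each gene relative to its mean over all 16 samples), and the summed CPM of 6 proliferation and 8 milk protein genes, for each sample (bars, coloured by genotype, with replicate numbers). HER2 mutant replicate 1 is highest for proliferation (449.7 CPM) and sterol genes (1.04), replicate 2 is lowest of its genotype for sterol genes (-0.54), and replicate 3 is highest for milk genes (51873 CPM).

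Other genes of these pathways, 37 in number, were examined beside the 36, and 34 passed the filter (Elovl2, Elovl3 and Olah did not). Against WT, 6 rose and 0 fell in PIK3CA mutants, 9 rose and 2 fell in HER2 mutants, and 9 rose and 1 fell in double mutants. Hacd3, a dehydratase of very long chain synthesis, fell in HER2 mutants (log2 fold change -1.10, edgeR's adjusted p 0.00337 with SE 0.20) and double mutants (-0.99, edgeR's adjusted p 0.00257 with SE 0.18), from 130.4 to 199 CPM in WT to 67.8 to 92.0 and 60.2 to 112 CPM. Its relative Hacd2 also fell in HER2 mutants, from 41.8 to 49.7 CPM in WT (log2 fold change -0.74, edgeR's adjusted p 0.0247 with SE 0.19). It was lower in HER2 mutants, at 19.0 to 36.2 CPM, than in PIK3CA mutants, at 44.4 to 52.5 CPM (log2 fold change -0.81, edgeR's adjusted p 0.0204 with SE 0.18), and higher in double than in HER2 mutants (1.05, edgeR's adjusted p 0.00687 with SE 0.17), with 45.5 to 70.4 CPM in double mutants. Dgat1, which completes triglycerides, was higher in HER2 than in PIK3CA mutants (1.01, edgeR's adjusted p 0.0188 with SE 0.22), at 37.5 to 79.4 against 26.3 to 30.7 CPM. Among the genes called against WT were also Lbr, Tmem97, Aacs, Slc25a1, Fads1, Lpin1 and Dgat1, each higher wherever it was called. Tmem97 was also higher in double than in PIK3CA mutants. The interaction called 0 of the 34.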

How the data were processed

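RNA-seq libraries of 16 mouse mammary organoid samples were analysed from the deposited count per gene, unnormalized, and from the deposited normalized signal, which the authors made by dividing counts by 1 factor per sample (per the file headers and the values, constant to 5.55e-10). The submitters' processing notes name bcl2fastq 2.20, STAR 2.0.4b, featureCounts 1.4.5 of Subread, DESeq2 1.33.5 and mm10. The annotation release, strandedness and treatment of multi-mapped reads are not given in the sources used here. Of 55774 entries, 287 repeats were dropped. Gene positions and lengths came from GENCODE M21 (GRCm38), which held 55141 of the 55487 identifiers.

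Counts were tested in R 4.3.3 with edgeR 4.0.16 (TMM scaling, filterByExpr, quasi-likelihood test, two-sided) in 1 fit of all 16 samples by genotype. P-values were adjusted by Benjamini-Hochberg over 24252 genes, with a threshold of 0.05. The standard error is the log2 fold change divided by the root of F. Log2 CPM used a prior count of 2. The interaction is double minus HER2 minus PIK3CA mutant plus WT. The statistics were tested on simulated data. Alternatives were RLE and upper-quartile scaling, DESeq2 1.42.0, no filter, fits of only the compared genotypes, a replicate block, limma 3.58.1 on log2 of the normalized value plus 1, a GC and length offset (splines with 5 df), leaving out each replicate, and leaving out double mutant replicates 2 and 3.

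The 36 genes, the other lists and the alternatives were chosen with earlier results of these data known. Named with every sample's value were 10 genes chosen by role (Srebf1, Srebf2, Insig1, Scap, Fasn, Acaca, Scd1, Scd2, Sqle, Hmgcs1) and the 4 called genes of largest change in each comparison. Of other pathway genes, the called gene of largest change in each direction was named with values, except that some results are not reported here.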

Additional observations from a re-analysis of the deposited data

Results flagged for a closer look

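In 4 of 108 groups of 4 or 5 samples, 1 sample lay far from the others of its genotype, by the gap to its neighbour as a share of the group's range. Chance gives about 1 in 20 such groups, or 5.4 here. Acly in HER2 mutant replicate 1 was at 764.3 CPM, with the next sample at 329.3 CPM, a gap of 0.919 of the range. Srebf1 in PIK3CA mutant replicate 3 was at 1586 CPM, with the next at 1029 CPM (0.882). Pmvk in PIK3CA mutant replicate 3 was lowest, at 6.133 CPM, with the next at 7.948 CPM (0.887). Fdps in PIK3CA mutant replicate 1 was at 3.276 CPM, with the next at 1.962 CPM (0.832).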

How the results depend on the processing

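Of the 20 genes called in double mutants against WT, 11 were called in every fit that left out a replicate and every other alternative, and of the 14 in HER2 mutants, 4 were called in every fit that left out a replicate and 1, Fasn, in every alternative as well. When each replicate was left out in turn, the number of the 36 genes called ranged from 0 to 1 in PIK3CA mutants against WT, 4 to 21 in HER2 mutants against WT, 11 to 22 in double mutants against WT, 0 to 5 between double and PIK3CA mutants, 1 to 8 between HER2 and PIK3CA mutants, and was 0 throughout between double and HER2 mutants and for the interaction. Fits of only the compared genotypes called 17 genes in PIK3CA mutants against WT, 1 in HER2 mutants against WT, 5 between double and PIK3CA mutants and 1 between HER2 and PIK3CA mutants. DESeq2 called 2 in PIK3CA mutants against WT and 7 between double and PIK3CA mutants. Without double mutant replicates 2 and 3, 2 genes were called between double and HER2 mutants, 5 between double and PIK3CA mutants and 1 for the interaction. The cause of these shifts was not tested.

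Samples that share a replicate number were not treated as pairs, since in no comparison was every same-number correlation over 0.1. Between double and HER2 mutants these correlations were all positive (0.0711 to 0.273, mean 0.157), and 2 of 4 samples correlated best with their own number. A replicate block left 0 genes called between double and PIK3CA mutants, 10 in HER2 mutants against WT and 15 in double mutants against WT, and the counts of the other comparisons were those without it.

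The log2 difference of Scd1 in HER2 mutants against WT reversed with the replicate block (-0.17) and without WT replicate 2 (-0.24), HER2 mutant replicate 3 (-0.31) or HER2 mutant replicate 4 (-0.019), in a range of -0.31 to 0.36 over these fits. That of Scap reversed in HER2 mutants with the GC and length offset (0.0014) and without HER2 mutant replicate 3 (0.023, in a range of -0.33 to 0.023 over the fits that left out a replicate), and in double mutants without replicates 2 and 3 (0.088). None of these passed the threshold in the test as reported.

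Over all genes tested, 1096 were called in PIK3CA mutants against WT, 2518 in HER2 mutants against WT, 2850 in double mutants against WT, 606 between double and HER2 mutants, 163 between double and PIK3CA mutants, 1069 between HER2 and PIK3CA mutants and 257 for the interaction. The replicate block gave 1625 in HER2 mutants against WT, 118 between double and HER2 mutants, 19 between double and PIK3CA mutants, 552 between HER2 and PIK3CA mutants and 35 for the interaction. Fits of only the compared genotypes gave 4136 in PIK3CA and 541 in HER2 mutants against WT, 37 between double and HER2, 364 between double and PIK3CA and 534 between HER2 and PIK3CA mutants. DESeq2 gave 1778 in PIK3CA mutants against WT, 1652 between double and HER2, 613 between double and PIK3CA and 2110 between HER2 and PIK3CA mutants, and 945 for the interaction. Without double mutant replicates 2 and 3, 1125 were called between double and HER2 mutants, 213 between double and PIK3CA mutants and 998 for the interaction. Fdps, at 49 to 367 counts per sample, rests on few counts, as does Thrsp in PIK3CA mutants, at 4 to 270 counts.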
